A study of Mus musculus with 6 samples.

Results

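The GABA-A receptor alpha subunit genes described here were Gabra2, Gabra3, Gabra4, Gabra5 and Gabra6. They were taken as the probe rows whose platform annotation named 1 gene alone and that gene was one of these. Each of the 5 had 1 such row, out of 23521 rows naming 1 gene, 22180 genes with a row of their own and 41345 rows in all. The arrays were Affymetrix whole-transcript arrays, and their values were deposited on a log2 scale, on which a difference of 1 is a 2-fold change. There were 3 arrays of ethanol-exposed mice and 3 of saline control mice, each with RNA pooled from 3 males, out of 18 males named in the protocol.

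All mice were of the inbred strain C57BL/6J. The ethanol group received ethanol at 2.5 g/kg, dissolved in 0.15 M NaCl, by 2 injections under the skin on each of postnatal days 4 and 7, and the saline group received saline. Littermates matched for sex and weight were divided between the groups, but no label says which pools share litters. Age at death is given as 21 days in the characteristics and as day 70 in the treatment protocol. The tissue is labelled whole hippocampus. The C57BL/6J substrain, which both groups share, is known for an intronic deletion in Gabra2 that lowers its transcript and protein.

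GABA-A receptors are chloride channels opened by the inhibitory transmitter GABA, each built from several subunits around a pore. The alpha subunit helps to form the GABA site at its border with a beta subunit, and, where a gamma subunit is present, the benzodiazepine site at its border with that subunit. It also decides much of where on the neuron the receptor sits and which drugs act on it. Ethanol and neurosteroids can enhance GABA-A receptor currents, and in the newborn brain ethanol triggers the death of developing neurons. Gabra2 and Gabra3 encode subunits of synaptic receptors that bind benzodiazepines. Gabra5 encodes a mostly extrasynaptic subunit that is typical of hippocampal pyramidal cells. Gabra4 and Gabra6 encode subunits that pair with the delta subunit in extrasynaptic receptors, Gabra4 in dentate gyrus and thalamus and Gabra6 in granule cells of the cerebellum.

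On mouse build GRCm38 the 5 genes lie in clusters with other subunit genes. Gabra2 (chr5:70958392-71095849) and Gabra4 (chr5:71569734-71658308) share chromosome 5 with Gabrg1 and Gabrb1. The annotated spans of Gabra4 and Gabrb1, which are read from opposite strands, overlap by 388 bases at their starts. Gabra5 (chr7:57407669-57591016) lies 20.5 kb from Gabrg3. Gabra6 (chr11:42306437-42321072) lies 98.4 kb from Gabrb2. Gabra3 (chrX:72432676-72656919) lies 158 kb from Gabre and 168 kb from Gabrq.

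The promoter windows of 2 genes are shown because these had the largest ethanol difference (Gabra2) and the smallest range over arrays (Gabra6). Each runs from 250 bases before to 50 bases after an annotated start on the minus strand of GRCm38, from RefSeq, and is printed 5′ to 3′ with every CG dinucleotide in capitals. The Gabra2 window is chr5:71095800-71096099 and the Gabra6 window is chr11:42321023-42321322.
Gabra2: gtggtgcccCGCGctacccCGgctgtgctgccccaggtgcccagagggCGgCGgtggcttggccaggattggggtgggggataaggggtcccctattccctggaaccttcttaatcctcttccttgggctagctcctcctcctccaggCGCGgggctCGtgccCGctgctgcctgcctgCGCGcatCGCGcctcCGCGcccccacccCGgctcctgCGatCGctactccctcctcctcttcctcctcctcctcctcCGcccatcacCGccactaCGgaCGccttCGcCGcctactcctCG
Gabra6: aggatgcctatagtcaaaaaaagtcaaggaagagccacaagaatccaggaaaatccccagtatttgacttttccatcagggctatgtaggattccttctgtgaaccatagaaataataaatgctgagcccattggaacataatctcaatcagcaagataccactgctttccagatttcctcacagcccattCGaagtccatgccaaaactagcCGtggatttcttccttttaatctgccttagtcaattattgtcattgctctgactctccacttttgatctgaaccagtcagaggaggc

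The Gabra2 window held 25 CG dinucleotides and was 70% G and C, and 18.4% of the 32851 mouse promoter windows held at least as many. The Gabra6 window held 2, was 42% G and C, and 85.9% of all windows held at least as many. The windows of Gabra4 and Gabra5 lay between these, with 12 and 13 CG dinucleotides, against a median of 7 over all windows. The Gabra5 window belongs to a start inside the annotated span of the gene. Both windows listed for Gabra3 held 0. These counts describe the sequence and were set against no expression value.

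On both strands, the TATA box letters TATAAA occurred once, at 1 shared site, in the 2 overlapping Gabra3 windows and in 13.6% of all windows, and not in those of the other 4 genes. The Sp1 letters GGGCGG occurred 2 times in each of the Gabra2 and Gabra4 windows, and 35.7% of all windows held them. The nuclear factor I letters TTGGC occurred once in the Gabra2 and Gabra6 windows and 2 times in that of Gabra4, and 46.7% of all windows held it. The E-box letters CANNTG, found in 72.3% of all windows, occurred once in the Gabra2 window and 3 times in the Gabra5 window. The early growth response letters GCGNGGGCG (5.55% of all windows) and the cAMP response letters TGACGTCA (1.79%) were in none of the members' windows. No match of one of these motifs overlapped a match of another in the members' windows. A match of letters is not a bound site.

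Saline array 1 stood apart from saline arrays 2 and 3 by its principal component score, and less clearly by its correlations. Across all rows its Pearson correlation was 0.990 to 0.992 with arrays of the ethanol group and 0.987 with each of the other saline arrays. Saline arrays 2 and 3 correlated at 0.988 with each other. With ethanol arrays, saline array 2 correlated at 0.987 to 0.989 and saline array 3 at 0.989 to 0.990. A low correlation within the saline group was thus not particular to saline array 1. Saline array 1 scored -19.9 on the first principal component, where the ethanol arrays scored -19.1 to -1.59 and saline arrays 2 and 3 scored 32.6 and 23.7. The values of the 5 genes are therefore given below with and without it where it moved them. Some markers of forebrain neurons had their highest value on this array. Nrgn, a calmodulin-binding protein of forebrain excitatory neurons, stood at 7.17, 7.31 and 7.33 on ethanol arrays 1 to 3, against 9.11, 7.19 and 7.48 on saline arrays 1 to 3. The neuropeptide genes Sst and Npy stood at 9.54 and 9.30 on saline array 1, against 8.29 to 8.66 and 8.51 to 8.74 on the other arrays. Neurod2, of the telencephalic list, was lowest there, at 10.53 against 10.55 to 10.70 on the other arrays. Saline array 1 was the highest of the 6 in 5 of 11 interneuron markers, 4 of 9 telencephalic excitatory markers and 6 of 11 dentate gyrus markers. It was highest in 4 of 8 CA1, 7 of 12 CA3 and CA2 and 4 of 18 cerebellar granule cell markers. So it was in 8 of 17 genes of GABA synthesis and transport and 7 of 24 of receptor assembly. It was highest in 2 of 9 Purkinje cell, 1 of 10 astrocyte and 1 of 9 myelinating oligodendrocyte markers. It was so in 2 of 11 other receptor subunits and 1 of 7 genes of neurosteroids and endozepines. Ethanol array 2 was highest in 11 of the 24 assembly genes and 6 of the 18 granule cell markers, more than saline array 1. The share over all genes was not counted, so the counts are not tied to a cell type. The part of the marked cells in the values below was not tested.

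The tissue label was set against marker genes. Over 18 cerebellar granule cell markers the median level was 10.18 and over 9 Purkinje cell markers 10.35. It was 7.07 over 8 CA1 markers, 7.27 over 11 dentate gyrus markers, 7.51 over 12 CA3 and CA2 markers and 6.76 over 9 markers of telencephalic excitatory neurons. For scale, genes were put into 10 equal bins by brightness, with a median of 3.92 in the dimmest bin and 9.92 in the brightest. Single genes ranged from 7.45 to 12.11 in the granule cell list and from 6.36 to 12.44 in the Purkinje list. The range was 6.56 to 8.72 in the CA1 list and 5.62 to 8.87 in the dentate gyrus list. It was 6.16 to 12.81 in the CA3 and CA2 list, with Pcp4 the brightest. In the telencephalic list it was 5.28 to 10.58, with Neurod2 the brightest. A listed marker can be used by other cell types too, and for Pcp4 and Neurod2 this was not examined. Binding strength differs between probes, so levels of different genes are given side by side and not ranked, and they do not settle which tissue the RNA came from. The tissue is therefore called here by its label only.

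None of the 5 genes passed the test of ethanol against saline. At an adjusted p under 0.05 the limma fit called 0 of 41345 rows (0%), and 2290 rows (5.54%) had an unadjusted p under 0.05. Of the 5 genes 1, Gabra2, had an unadjusted p under 0.05. The groups overlapped in all 5 genes, whereas they did not overlap in 11.1% of all rows. The difference was above 0 in 4 of the 5 genes, with a median of 0.10. Over all rows 50.7% of differences were above 0 with a median of 0.00, and over genes above the median brightness 67.8% were, with a median of 0.04. An exact two-sided permutation test of 3 against 3 arrays cannot give a p below 0.1.

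**Figure D1:**
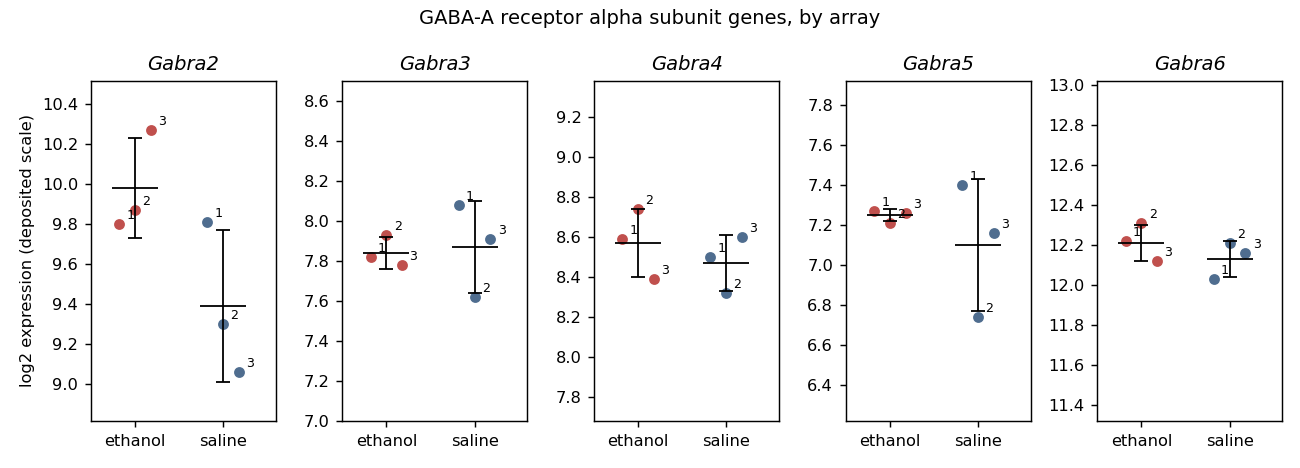
Log2 expression of the 5 alpha subunit genes on each array, with ethanol left of saline in each panel. Points carry the array number, black bars give the mean and SD of 3 arrays, and all panels span the same number of log2 units. Gabra2 spans 1.21 log2 units over the 6 arrays and Gabra6 0.28.

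Gabra2, the subunit of synaptic receptors also known from human studies of alcohol dependence, had the largest difference and the widest spread of the 5. Its level was 9.80, 9.87 and 10.27 on ethanol arrays 1 to 3, against 9.81, 9.30 and 9.06 on saline arrays 1 to 3. Saline array 1 stood within the ethanol values and the other saline arrays lay below every ethanol array.

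Gabra2 averaged 9.98 ± 0.25 in ethanol and 9.39 ± 0.38 in saline (SD, n = 3 each). The difference was 0.59 ± 0.21 (log2, SE), with a 95% interval of 0.09 to 1.09. On a linear scale that is 1.51-fold, with an interval of 1.06 to 2.13. The unadjusted limma p was 0.0271, the limma p adjusted over all rows was 0.857, and the exact two-sided permutation p was 0.2. Genes of the same brightness bin had a median difference of 0.08. In RNA of a whole tissue, more cells that use a gene and more of its RNA per cell cannot be told apart, here and for each gene below.

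The spread of Gabra2 was wide among bright genes. Its SD within groups was 0.32, which exceeded that of 99.4% of the genes above the median brightness. Without saline array 1 the difference was 0.80 ± 0.17 (SE), with a limma adjusted p of 0.385. Without ethanol array 3, the highest array, it was 0.45 ± 0.22, and without saline array 3, the lowest, it was 0.43 ± 0.21. The adjusted limma p was 0.87 without ethanol array 3 and 0.824 without saline array 3. Gabra2 thus had a difference above 0 whichever array was left out, and in no case was it called.

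Gabra3, which encodes a subunit known from monoamine neurons and the reticular thalamus, had nearly equal means. Its level was 7.82, 7.93 and 7.78 on ethanol arrays 1 to 3, against 8.08, 7.62 and 7.91 on saline arrays 1 to 3. All ethanol values lay inside the range of the saline values. Gabra3 averaged 7.84 ± 0.08 in ethanol pools and 7.87 ± 0.23 in saline pools (SD, n = 3 each). The difference was -0.03 ± 0.13 (SE), with a 95% interval of -0.33 to 0.27 and a limma adjusted p of 0.971. On a linear scale the interval spans folds of 0.796 to 1.21. Without saline array 1, its highest array, the difference was 0.08.

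Gabra4, the partner of the delta subunit in receptors that carry tonic current, was measured with similar spread in both groups. Its level was 8.59, 8.74 and 8.39 on ethanol arrays 1 to 3, against 8.50, 8.32 and 8.60 on saline arrays 1 to 3. Ethanol array 2 was the highest and saline array 2 the lowest, and the other arrays were interleaved. Gabra4 averaged 8.57 ± 0.17 in ethanol pools and 8.47 ± 0.14 in saline pools (SD, n = 3 each). The difference of 0.10 ± 0.12 (SE) had a 95% interval of -0.18 to 0.38 and a limma adjusted p of 0.899. It was 0.02 without ethanol array 2 and 0.03 without saline array 2. Its brightness bin had a median difference of 0.05.

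Gabra5, the extrasynaptic subunit typical of hippocampal pyramidal cells, was steady in ethanol and scattered in saline. Its level was 7.27, 7.21 and 7.26 on ethanol arrays 1 to 3, against 7.40, 6.74 and 7.16 on saline arrays 1 to 3. Saline array 1 was the highest of the 6 and saline array 2 the lowest. Gabra5 averaged 7.25 ± 0.03 in ethanol pools and 7.10 ± 0.33 in saline pools (SD, n = 3 each). The spreads of the groups were not tested against each other. The difference of 0.15 ± 0.16 (SE) had a 95% interval of -0.24 to 0.53 and a limma adjusted p of 0.896. It rested on saline array 2, without which it was -0.03, and it was 0.29 without saline array 1.

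Gabra6, the subunit of cerebellar granule cells, was bright on every array. Its level was 12.22, 12.31 and 12.12 on ethanol arrays 1 to 3, against 12.03, 12.21 and 12.16 on saline arrays 1 to 3. The groups overlapped, with ethanol array 2 the highest and saline array 1 the lowest. Gabra6 averaged 12.21 ± 0.09 in ethanol pools and 12.13 ± 0.09 in saline pools (SD, n = 3 each). The difference of 0.08 ± 0.09 (SE) had a 95% interval of -0.12 to 0.29 and a limma adjusted p of 0.889. It equalled the median difference of its brightness bin, 0.08, and was -0.01 after cyclic loess, a scaling that removes trends with brightness. Without saline array 1 it was 0.03.

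The granule cell markers were measured on the same arrays as Gabra6. They included Cbln3, a synaptic organizer, at a mean level of 12.11, the transcription factor Zic1 at 11.97 and Calb2, a calcium-binding protein also found in interneurons, at 11.66. The list's 18 genes ranged from 7.45 for Barhl1 to 12.11. The list median over arrays was 10.10 to 10.32 in ethanol and 10.03 to 10.25 in saline. Of the 18 genes 16 had a difference above 0, with a median of 0.12, and 0 were called. Over genes above the median brightness 67.8% of differences were above 0, and the brightest bin had a median of 0.08. All 10 astrocyte markers were above 0 too, with a median of 0.10. An unadjusted limma p under 0.05 was found in 3 of the 18, against 5.54% of all rows and 258 of 13676 genes above the median brightness. The 3 were Tlr3 (limma p 0.0165), Slc17a7 (0.0372) and Calb2 (0.0439). The groups did not overlap in 5 genes that were higher and 1 that was lower in ethanol, against 11.1% of all rows in either direction. The markers' part in the Gabra6 value was not tested. The CA1 markers, typical of cells in which Gabra5 is known to be abundant, had medians of 6.98 to 7.03 over the ethanol arrays and 7.11 to 7.17 over the saline arrays. Of these 8 genes 6 had a difference below 0, with a median of -0.09, and 0 were called. In 1 of them, lower in ethanol, the groups did not overlap, against 11.1% of all rows. Over all rows 50.7% of differences were above 0, with a median of 0.00. Of 9 telencephalic excitatory markers 7 were below 0 too, with a median of -0.06. So were 7 of 11 dentate gyrus markers, with a median of -0.02. The CA3 and CA2 markers did not share this direction. Of these 12 genes 7 had a difference above 0, with a median of 0.04, and 0 were called. The groups did not overlap in 1 that was higher and 2 that were lower in ethanol, against 11.1% of all rows. The medians of the 12 genes were 7.48 to 7.53 over the ethanol arrays and 7.49 to 7.62 over the saline arrays.

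**Figure D2:**
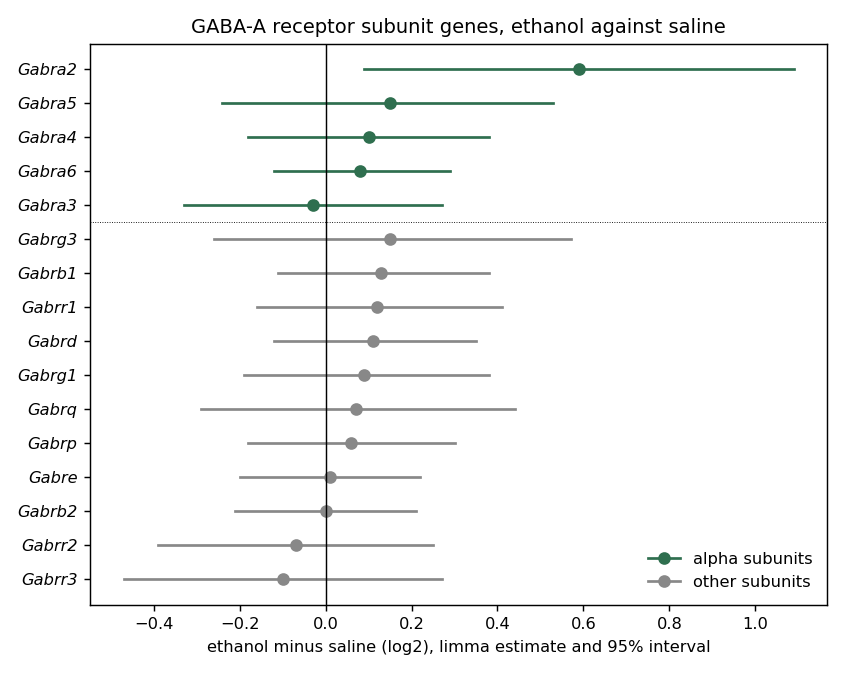
Ethanol minus saline in log2 units for the 5 alpha subunit genes (green) and 11 other subunit genes (grey), with the 95% interval of the limma fit, unadjusted. The interval of Gabra2, 0.09 to 1.09, lies above 0, and every other interval includes 0.

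The other subunits of the receptor were measured through 11 of 13 listed genes. Of these, 9 had a difference above 0 and 2 below, with a median of 0.07, and 0 were called. None had an unadjusted limma p under 0.05, against 5.54% of all rows. None had groups that did not overlap, against 11.1% of all rows, and so few genes set neither count apart from these shares. Gabrd, the delta subunit that pairs with the products of Gabra4 and Gabra6, averaged 9.27 ± 0.14 in ethanol and 9.15 ± 0.09 in saline (SD, n = 3 each), a difference of 0.11 ± 0.10 (SE). The largest differences were those of Gabrg3, a gamma subunit, at 0.15 ± 0.18, Gabrb1, a beta subunit, at 0.13 ± 0.10, and Gabrr1, a retinal rho subunit, at 0.12 ± 0.12. Gabrb2, a beta subunit, differed by 0.00 ± 0.09. Between the alpha genes and these 11 no difference was tested.

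Genes that assemble, move and anchor the receptors had differences above 0 in 21 of 24 measured members, with a median of 0.05, and 0 were called. After quantile normalization 12 of the 24 were above 0, and after cyclic loess 11, so the excess depended on the scaling. The largest differences were 0.18 ± 0.12 for Gabarapl1, related to a protein that carries receptors to the surface, 0.16 ± 0.08 for Trak2, a kinesin adaptor, and 0.16 ± 0.09 for Slitrk3, an organizer of inhibitory synapses. Trak2 was the 1 gene of the 24 whose groups did not overlap, against 11.1% of all rows. Gphn, the gephyrin scaffold of inhibitory synapses, differed by 0.03.

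Genes of GABA synthesis, transport and breakdown and of chloride control had differences above 0 in 12 of 17 measured members, with a median of 0.05. None was called, and after cyclic loess 6 of the 17 were above 0. Aldh5a1, the last enzyme of GABA breakdown, had the largest difference at 0.21 ± 0.10. Slc6a12, a betaine and GABA transporter, stood at -0.14 ± 0.09 and Slc38a1, a glutamine transporter, at 0.11 ± 0.09. Slc12a5, the exporter that keeps chloride low in mature neurons, differed by 0.10.

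Genes of neurosteroids and endozepines, natural modulators of the receptor, had differences above 0 in 5 of 7 measured members, with a median of 0.15 and 0 called. Akr1c14, an enzyme of neurosteroid synthesis, differed by 0.32 ± 0.17. It was the 1 gene of the 7 whose groups did not overlap, against 11.1% of all rows. It was dim, at 5.11, 5.75 and 5.19 on ethanol arrays 1 to 3, against 5.06, 4.96 and 5.07 on saline arrays 1 to 3, and the gap between the groups was small beside the height of ethanol array 2. Cyp11a1, which makes pregnenolone, and Acbd6, a relative of the endozepine Dbi, each differed by 0.18.

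Subunit genes of 1 cluster were compared across the 6 arrays in 11 pairs, with exact permutation tests over the 720 orders of the arrays and Benjamini-Hochberg adjustment over the pairs. Gabra5 and Gabrg3, neighbours on chromosome 7, moved together. Gabrg3 stood at 6.53, 6.48 and 6.64 on ethanol arrays 1 to 3, against 6.78, 6.07 and 6.33 on saline arrays 1 to 3, so that saline array 1 was the highest and saline array 2 the lowest in both genes. Pearson's r was 0.95 (exact permutation p = 0.00278, adjusted p = 0.0153, n = 6 arrays). Spearman's rho was 0.94 (exact permutation p = 0.0167, adjusted p = 0.0917). The r was 0.89 without saline arrays 1 and 2, the farthest from the Gabra5 median, and 0.94 within groups.

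Gabra4 and Gabrg1, which lie in the chromosome 5 cluster, also moved together. Gabrg1 stood at 8.29, 8.57 and 8.18 on ethanol arrays 1 to 3, against 8.22, 8.16 and 8.37 on saline arrays 1 to 3. Pearson's r was 0.92 (exact permutation p = 0.00139, adjusted p = 0.0153, n = 6 arrays) and Spearman's rho was 1.00 (exact permutation p = 0.00278, adjusted p = 0.0306). The r was 0.90 without ethanol array 2 and saline array 2, and 0.91 within groups. Gabra4 and Gabrb1, whose spans overlap, had an r of 0.74 (exact permutation p = 0.0875, adjusted p = 0.256, n = 6 arrays), which was -0.72 without the same 2 arrays and so rested on them.

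Gabra2 was not shown to follow its neighbours, which 6 arrays cannot exclude. Its r was 0.01 with Gabra4, -0.07 with Gabrg1 and 0.50 with Gabrb1, with adjusted exact permutation p from 0.489 to 0.989 (n = 6 arrays). With Gabrb1 Spearman's rho was 0.77 (exact permutation p = 0.103, adjusted p = 0.377). Gabra6 and Gabrb2 had an r of 0.67, and Gabra3 had 0.09 with Gabre and 0.56 with Gabrq, with adjusted exact permutation p of 0.345, 0.966 and 0.41 (n = 6 arrays). Other genes reached such values too. Of 12620 named genes above the median brightness, 170 (1.35%) followed Gabra5 at least as closely as Gabrg3 did. Of 12619, 269 (2.13%) followed Gabra4 at least as closely as Gabrg1 did.

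**Figure D3:**
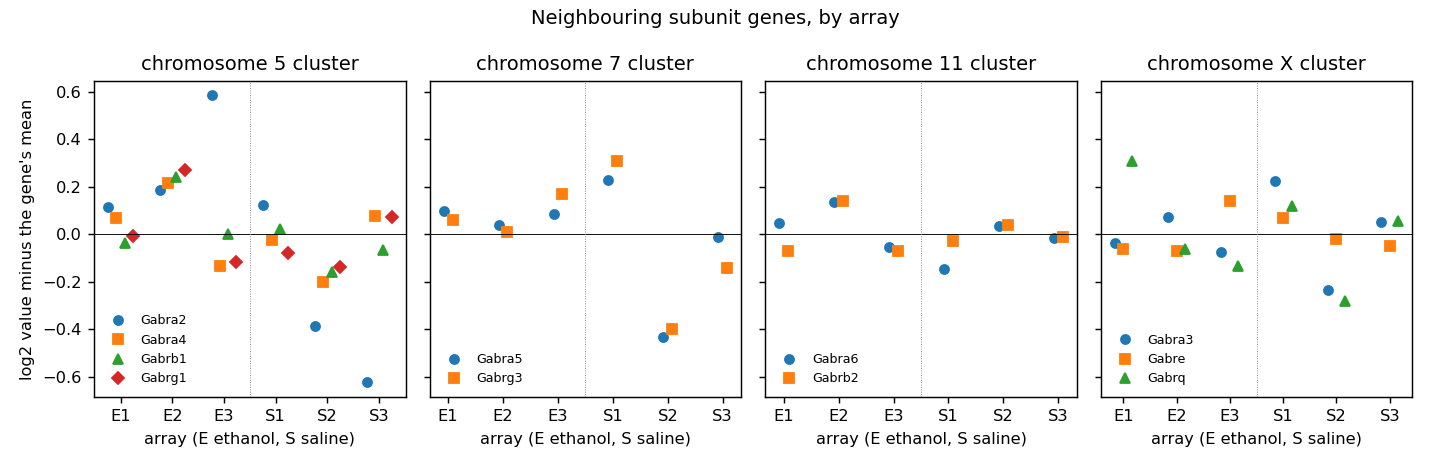
Log2 value minus the gene's mean over 6 arrays, for the subunit genes of 4 clusters, with ethanol arrays left and saline arrays right. Gabra5 and Gabrg3 share their lowest array, saline array 2. Gabra2 is highest on ethanol array 3 and lowest on saline array 3, which holds for no other chromosome 5 gene shown. On saline array 2 all chromosome 5 genes shown lie below their means.

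The genes most like each alpha subunit over the 6 arrays were taken as the 3 with the highest Pearson r among 12620. They were chosen as the highest of many, so r describes them and carries no p. Gabra2 was followed by Pcnx (r = 0.984, Spearman's rho 1.00), Skiv2l, an RNA helicase (0.982, rho 0.83), and Cystm1 (0.981, rho 1.00). Their ranges over the arrays were 0.30, 0.10 and 0.12, against 1.21 for Gabra2. Pcnx and Cystm1 thus shared the order of arrays of Gabra2 and not its size. Skiv2l, with a rho of 0.83, did not share the full order. Without saline arrays 2 and 3, the farthest from the Gabra2 median, the r of the 3 genes was 0.92, 0.97 and 0.90.

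Gabra3 was followed by Rnaseh2b, a subunit of ribonuclease H2 (r = 0.987), Zbtb14, a zinc finger factor (0.984), and Cabp7, a calcium-binding protein (0.982). Gabra4 was followed by Sdhaf1, an assembly factor of succinate dehydrogenase (r = 0.995), Ftsj1, a transfer RNA methyltransferase (0.993), and Hps3 (0.993). Gabra5 was followed by Gpr25, an orphan receptor (r = 0.997), Limd2 (0.994) and Car11, a carbonic anhydrase-related protein (0.992). Gabra6 was followed by the zinc finger genes Zfp983 (r = 0.991) and Zfp599 (0.980) and by Cmpk1, a nucleotide kinase (0.980). For these 4 members Spearman's rho was 0.94 to 1.00, and r without the 2 farthest arrays was 0.83 to 0.99. None of these genes is among the cerebellar or hippocampal markers listed here. The markers were few among the genes searched, and the dim ones were not searched, so nothing is drawn from this absence. An r above 0.9 was reached by 144 genes (1.14%) with Gabra2, 254 (2.01%) with Gabra3, 476 (3.77%) with Gabra4, 507 (4.02%) with Gabra5 and 82 (0.65%) with Gabra6.

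**Figure D4:**
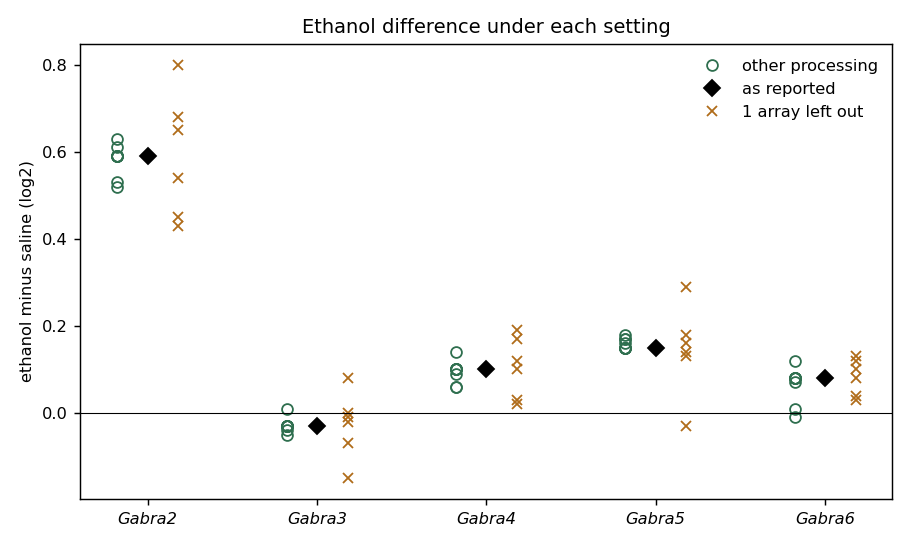
Ethanol minus saline in log2 units for each gene as reported (black), under 9 other ways of processing (green circles) and with each of the 6 arrays left out (brown crosses). Gabra2 stays between 0.43 and 0.80, and Gabra3, Gabra5 and Gabra6 each cross 0 under at least 1 setting.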

How the data were processed

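Total RNA was measured on 6 arrays, 3 per group. Per the labels' protocols, 200 ng of RNA was converted to complementary DNA, end-labelled with biotin and hybridized. The authors deposited log2 values, already summarized per row. The log2 scale was read from their range, and background correction, summarization and normalization are not given in the sources used here. Per the submitters' processing notes the build was mm 10. Scanner intensities and detection calls were not used here, so no row was judged against background.

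Gene names came from the platform annotation, in which 1814 rows name several genes and were not used. For 23328 rows naming 1 gene the Entrez identifier matched a RefSeq table of GRCm38, which gave positions and promoters. A gene with several rows was represented by its brightest.

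The two-sided test was limma's (version 3.58.1, R 4.3.3, lmFit followed by eBayes), fitted to every row without filter or covariate, with Benjamini-Hochberg adjustment over all rows. SEs come from that fit, with 4 residual and 2.94 prior degrees of freedom. The number of arrays limits the precision. The limma p-values set a difference against the spread between pools, and the spread between single mice was not seen. The alternatives covered scaling between arrays, the limma prior, filters, array weights, the array number as a block and each array left out. Named beside the members were the 3 genes of each pathway list with the largest difference, any with an unadjusted p under 0.05, subunits in a member's cluster and the 3 genes most alike by Pearson's r. Gabrd, Gphn, Slc12a5, the cell type markers and the promoters printed were chosen after their values were seen. The members, lists and tests were chosen with earlier results of these data known.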

Additional observations from a re-analysis of the deposited data

How the results depend on the processing

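No alpha subunit gene was called under any of the 15 other fits. Gabra2 stayed above 0 in all 15, from 0.43 to 0.80, with an unadjusted limma p under 0.05 in 12 and an adjusted limma p of 0.385 to 1. Gabra4 stayed above 0 in all 15, from 0.02 to 0.19. Gabra3 turned to 0.01 with arrays centred on their medians, which moved the median over all rows to 0.04 in place of 0.00, and ranged from -0.15 to 0.08 with 1 array left out. Gabra5 ranged from -0.03 to 0.29 with 1 array left out, below 0 only without saline array 2. Gabra6 turned to -0.01 after cyclic loess and was 0.01 after quantile normalization, and the cause was not tested. The number of rows called over the whole table was 0 in all settings, at an adjusted p under 0.1 too, except that leaving out 1 array gave 0 to 1. With the array number as a replicate block 0 rows were called, and Gabra2 differed by 0.59 ± 0.23 (SE). The numbers were not taken to pair the arrays, since deviations of same-numbered arrays correlated at 0.101, -0.0564 and 0.038. No gene had another row naming it alone, so the choice of row could not be varied. The number of pools, 3 per group, limits the precision, and the age and the tissue of the pools were not settled.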
